A study of Mus musculus with 30 samples.

Results

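The effect of an insulin injection on the mouse liver transcriptome was compared between sampling points 5 and 2, to find which treatment effects had reversed, faded or appeared by the later-numbered point. The comparison was between 12 of the 30 libraries of the series, 3 for each of insulin and PBS at each of the points. The spread behind every SE and p-value was estimated from all 30 libraries together, and not from the compared groups alone. The quantity tested was a difference of differences, the insulin minus PBS difference at point 5 less the insulin minus PBS difference at point 2, for the 12706 of 29117 genes that reached 1 FPKM in at least 3 of the 12 libraries. FPKM counts sequenced fragments relative to the length of the transcript and to all mapped fragments.

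The mice were C57BL/6J, an inbred laboratory strain, 10 weeks old, with no transgene or targeted allele named in the labels, and all groups had been fasted for 12 to 16 h. Treated mice received human insulin at 0.7 U/kg into the peritoneum and control mice received phosphate-buffered saline (PBS), and the left lobe of the liver was taken at 5 points over 4 h in triplicate. The labels number the points without minutes, so "late" and "faded" below follow the numbering only. The series describes its triplicates as biological without tying a library to an animal, and the p-values measure the spread between these libraries.

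Insulin acts on hepatocytes through its receptor, the Irs adaptor proteins and the kinase Akt, which keeps Foxo transcription factors out of the nucleus and so lowers genes of fasting. Glucagon and adrenaline act in the opposite sense through cyclic AMP, protein kinase A and the transcription factor CREB, whose targets include the Nr4a receptors and the kinase Sik1. Glucose itself is read by the transcription factor ChREBP, with Txnip and Rgs16 among its known liver targets.

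Libraries of one group correlated with each other at Pearson r of 0.971 to 0.981 across genes. The estimated depth was 22.6 to 36.1 M reads in the 12 libraries. The summed FPKM of 7 hepatocyte markers (among them Alb, Ttr and Apob) was 37680 to 49630 in every library, and none of the hepatocyte, Kupffer, endothelial, stellate, biliary, leukocyte or erythroid markers tested passed the test for the difference of differences. The insulin libraries numbered 1 held more mitochondrial ribosomal RNA than the others, with mt-Rnr1 at 3153 FPKM at point 2 and 3695 at point 5 against 470.5 to 1029 in the other 10. A further such RNA, mt-Rnr2, was not high in that pair alone. At point 2 it was at 1272 and 911.2 FPKM in insulin libraries 2 and 3, and at 853.7 in PBS library 1. The remaining libraries, insulin libraries 2 and 3 of point 5 among them, held 477.5 or less. Summed hemoglobin transcripts were 273.9 to 366.2 FPKM in insulin and 192.1 to 308.7 in PBS at point 2, and 204.1 to 244.3 in insulin and 286.1 to 432.3 in PBS at point 5. Summed Kupffer markers were lowest in insulin at point 5, at 76.99 to 110.9 FPKM, against 113.6 to 129.2 in PBS. Summed sinusoidal endothelial markers were 37.45 to 49.02 FPKM in insulin and 54.92 to 59.43 in PBS at point 5, where 3 of 6 were called lower, as were 2 of 9 Kupffer markers (17.3% of all genes were). The part of these shifts in the results was not tested. In bulk tissue, fewer cells of a type and less RNA per cell cannot be told apart. Insulin and PBS libraries were run on different sequencing lanes, which cannot be told apart from treatment at either point alone. The lane of a series of libraries was the same at points 2 and 5 in every case except the insulin libraries numbered 1.

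At point 2 the insulin libraries differed from PBS for 201 genes (1.58% of those tested), 90 higher (0.708%) and 111 lower (0.874%). By point 5 the number was 2607 (20.5%), 404 higher and 2203 lower. Both counts depended on single libraries. The point 2 count was 122 or 82 without insulin library 1 or 2 of point 2, and 497, 89 or 85 without PBS library 1, 2 or 3 of that point. The point 5 count was 1144 without insulin library 1 and 1384 without PBS library 3 of point 5. The effect itself differed between the points for 160 genes (1.26%), of which 63 had a higher insulin minus PBS difference at point 5 (0.496%) and 97 a lower one (0.763%). With the spread taken from the 12 libraries alone, 78 genes passed. All calls are from limma with Benjamini-Hochberg adjustment at 0.05, and sizes below are on the log2(FPKM + 1) scale, on which the change of a gene with low FPKM comes out too small. An unadjusted p below 0.05 was reached by 1534 genes. The median over all genes was -0.12 at point 2, -0.17 at point 5 and -0.06 for the difference of differences. With median-ratio scaling, which brought these medians to -0.000533, -0.00573 and -0.00936, the higher and lower calls were 150 and 58 (point 2), 1190 and 1138 (point 5) and 114 and 121 (difference of differences). Of the genes called as deposited, none had the opposite sign under any of the 25 alternatives tried.

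The 160 genes fell into 3 main kinds. For 10 genes the effect reversed, passing the test at both points with opposite signs, 8 from lower to higher (0.063% of genes tested) and 2 from higher to lower (0.0157%). For 42 genes it faded, passing at point 2 and not at point 5, of which 37 had been higher in insulin at point 2 (0.291%) and 5 lower (0.0394%). For 101 genes it appeared late, passing at point 5 and not at point 2, with 45 higher (0.354%) and 56 lower (0.441%). The remaining 7 passed at neither point on its own, and none passed at both with the same sign. Of the 90 genes higher at point 2, 39 had a changed effect (37 faded and 2 reversed), and of the 111 lower, 13 had (5 faded and 8 reversed). The other 51 and 98 did not pass for the difference, and 18 and 28 of these passed again at point 5 with the same sign. Conversely, 45 of the 404 genes higher at point 5, and 56 of the 2203 lower, passed as late. Most genes called at point 5 were thus not shown to have a changed effect. Of the 37 genes higher at point 2 that faded, 22 also passed with that sign at point 3 (10.2% of all genes passed there in either direction) and 7 at point 4 (14.1%). In 11 of the 37 the insulin and PBS libraries of point 5 still lay wholly apart, on either side (36.2% of all genes did). Of the 45 late higher genes, 10 had passed with that sign at point 3 and 18 at point 4. Of the 56 late lower genes, 20 had passed as lower at point 3 and 29 at point 4. The size of these counts rested on single libraries: without insulin library 2 of point 2, 82 genes passed for the difference of differences, and without insulin library 3 of point 5, 91 did. Without insulin library 1 of point 5 the count was 98, and it was 104, 102 and 101 without PBS library 1 of point 2, PBS library 1 of point 5 and PBS library 3 of point 2.

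**Figure D1:**
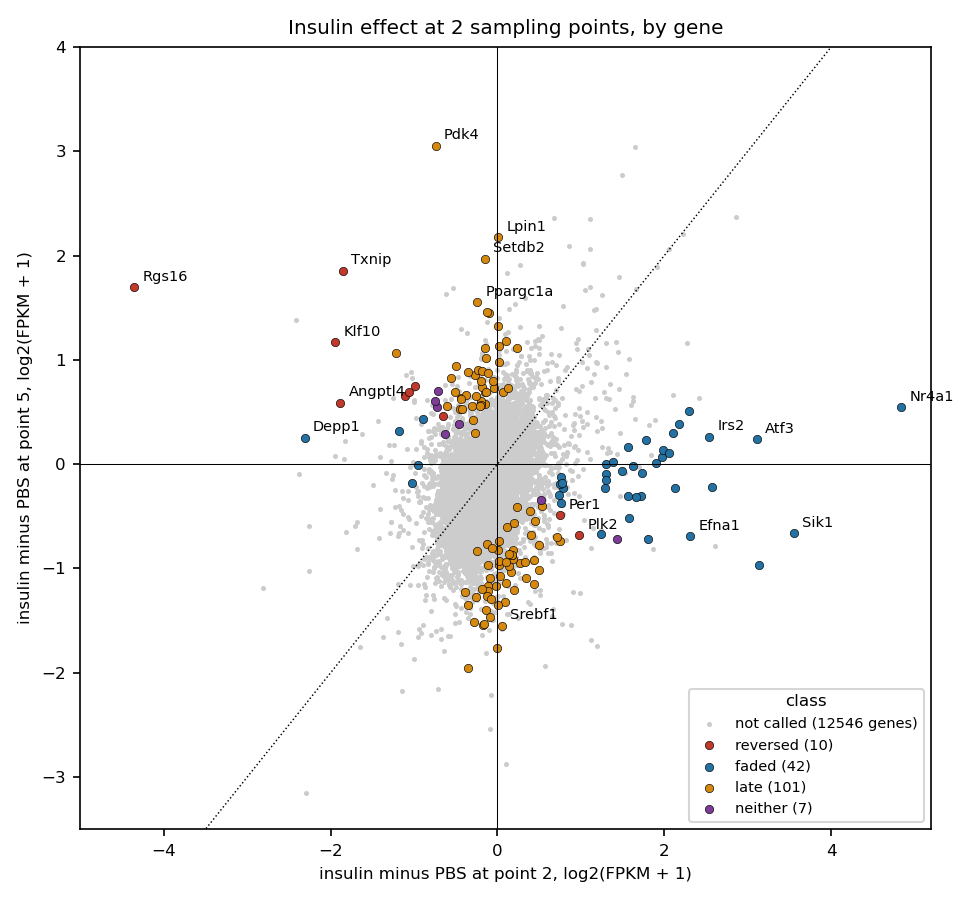
Insulin minus PBS difference of log2(FPKM + 1) at point 2 (horizontal) and point 5 (vertical) for each of the 12706 genes tested, with the 160 called genes coloured by class and the dotted diagonal marking equal effects. Reversed genes lie in the upper left and lower right quadrants, the 42 faded genes along the horizontal axis and the 101 late genes along the vertical axis.

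More genes passed the test between the points in the insulin arm than in the PBS arm. Between points 2 and 5, 833 genes (6.56%) changed in the insulin arm, 344 up (2.71%) and 489 down (3.85%). In the PBS arm 159 (1.25%) changed, 94 up (0.74%) and 65 down (0.512%). The insulin arm count was 482 without insulin library 1 of point 5 and 485 without insulin library 2 of point 2, and the PBS arm count was 59 without PBS library 1 of point 2. Among the 160 genes, 114 passed the test in the insulin arm alone, 22 in the PBS arm alone, 6 in both and 18 in neither. The faded genes were almost wholly of the first kind, with 40 of 42 passing in the insulin arm alone. A miss in the PBS arm does not show that this arm stayed level. In the faded genes Efna1 and Sik1, every PBS library of point 5 stood above every PBS library of point 2. Late genes were more mixed: 66 of 101 passed in the insulin arm alone and 21 in the PBS arm alone, 17 of these 21 with a lower difference at point 5. Prox1, a transcription factor of hepatocyte and lymphatic development, was of that kind. It stood at 17.5, 17.8 and 19.4 FPKM in insulin and 17.2, 15.9 and 20.9 in PBS at point 2, and at 13.8, 16.4 and 14.3 in insulin against 27.6, 28.5 and 31.0 in PBS at point 5. The PBS libraries were high at point 5, and the difference of differences was -0.95 ± 0.20 (SE, n = 3 per group, adjusted p = 0.0145). The adjusted p was 0.0695 without both insulin libraries numbered 1.

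**Figure D2:**
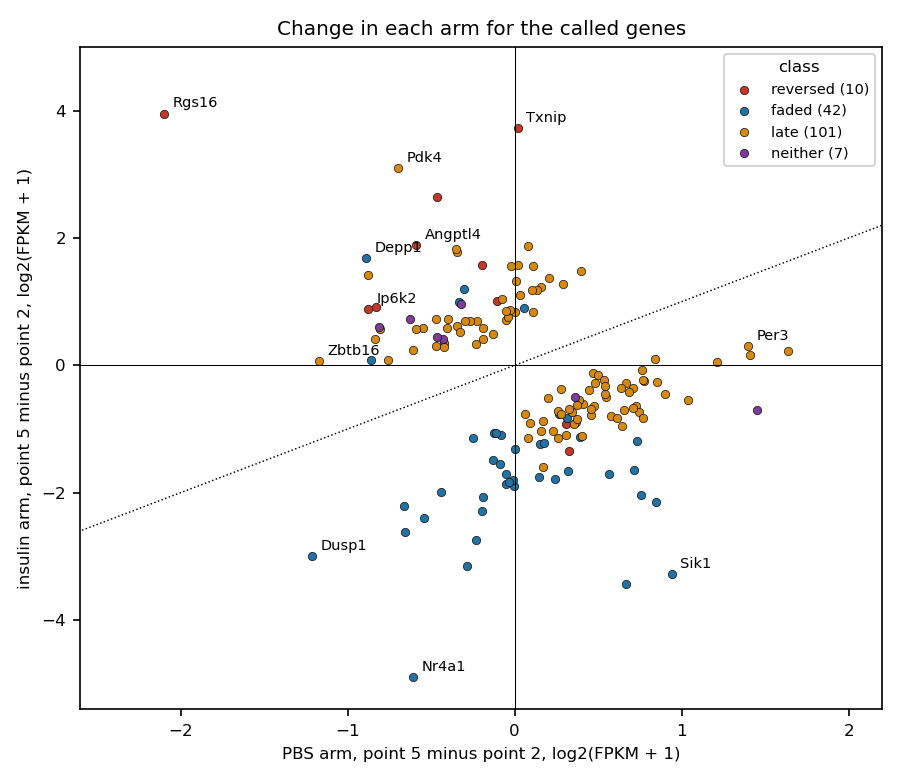
Change from point 2 to point 5 on the log2(FPKM + 1) scale in the PBS arm (horizontal) and in the insulin arm (vertical) for the 160 called genes, coloured by class, with the dotted diagonal marking equal change. Most points spread along the vertical axis, 114 genes having passed in the insulin arm alone, while Rgs16 moved in both arms and Per3 passed in the PBS arm alone.

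Rgs16, a brake on G protein signalling, had the largest difference of differences among the 160 genes at 6.05. Txnip, an arrestin-like protein that restrains glucose uptake, followed among the reversed genes at 3.71. Klf10, a zinc finger transcription factor and known ChREBP target, and Angptl4, a secreted inhibitor of lipoprotein lipase, came next at 3.11 and 2.47. Of the 10 glucose sensing and ChREBP genes tested, 2 were higher for the difference of differences (0.496% of all genes were), Rgs16 and Txnip. The list median was -0.03. In each of the 10 reversed genes the 3 insulin libraries lay wholly on one side of the 3 PBS libraries at point 2 and wholly on the other side at point 5. Over all genes the groups lay apart for 24.1% at point 2 and for 36.2% at point 5. The 10 genes were picked by their calls at both points in these same libraries. Their separation was thus largely set by that choice and gives no separate support. The calls of all 10 for the difference of differences held under each alternative in which the gene was tested. The reversal itself, which needs a call at each point, was less stable for some. Per1 counted as reversed under 15 of 25 alternatives, Plk2 under 17 of 24, Rgs16 under 22 of 25 and Klf11 under 22 of 24, and the other 6 under all 25. In all, 7 to 15 genes counted as reversed.

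Rgs16 (ENSMUSG00000026475, GRCm38 chromosome 1, 153740349 to 153745468, plus strand) was at 1.80, 2.68 and 0.859 FPKM in insulin at point 2 and at 36.0, 59.5 and 72.3 in PBS. Point 5 gave 69.8, 45.9 and 20.5 FPKM in insulin and 19.7, 14.3 and 5.59 in PBS. The insulin libraries were the lowest of the 12 at point 2, and at point 5 every one of them was above every PBS library. The insulin minus PBS difference went from -4.35 ± 0.47 to 1.70 ± 0.47 (SE, n = 3 per group), and the difference of differences was 6.05 ± 0.67 (adjusted p = 7.25e-06). Both arms moved in opposite directions, by 3.95 in insulin and by -2.1 in PBS. In the same fit the difference was -0.72 at point 1, -2.99 at point 3 and 0.41 at point 4, so the estimate changed sign between points 3 and 4.

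Txnip (ENSMUSG00000038393, chromosome 3, 96557957 to 96561883, plus strand) was at 9.08, 14.1 and 11.3 FPKM in insulin and 38.9, 42.4 and 50.1 in PBS at point 2. At point 5 the insulin libraries held 161, 176 and 151 FPKM and the PBS libraries 45.3, 49.1 and 38.7. The PBS arm stayed within 0.02 on the log2 scale (adjusted p = 0.982), while the insulin arm rose by 3.73. The effect was -1.85 ± 0.16 at point 2 and 1.86 ± 0.16 at point 5, a difference of 3.71 ± 0.23 (adjusted p = 1.46e-10). It was -0.36 at point 3 and 1.71 at point 4.

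Klf10 (ENSMUSG00000037465, chromosome 15, 38291463 to 38300706, minus strand) stood at 1.18, 1.49 and 1.50 FPKM in insulin and 6.96, 8.69 and 9.04 in PBS at point 2. At point 5 the values were 13.3, 16.6 and 12.3 FPKM in insulin and 3.05, 7.06 and 8.02 in PBS. The effect turned from -1.94 ± 0.24 to 1.17 ± 0.24 (adjusted p of the difference 7.25e-06). Angptl4 (ENSMUSG00000002289, chromosome 17, 33773750 to 33781830, minus strand) was at 24.6, 20.6 and 23.2 FPKM in insulin and 82.8, 102 and 77.6 in PBS at point 2. By point 5 it was at 86.6, 89.3 and 84.6 FPKM in insulin and 55.3, 55.7 and 61.3 in PBS. Its insulin libraries at point 5 lay within the range the PBS libraries had held at point 2, while the PBS libraries had come down, and the effect went from -1.89 ± 0.14 to 0.59 ± 0.14 (adjusted p of the difference 6.16e-08).

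The other upward reversals were smaller. Dnmbp, a scaffold that activates the small GTPase Cdc42, was at 3.55, 4.71 and 3.84 FPKM in insulin and 9.27, 10.8 and 9.53 in PBS at point 2, and at 12.6, 13.7 and 15.5 against 7.88, 9.61 and 7.98 at point 5. Its difference of differences was 1.76 ± 0.19 (adjusted p = 7.25e-06). Ip6k2, an inositol hexakisphosphate kinase, was at 15.5, 21.7 and 13.0 FPKM in insulin and 38.3, 32.2 and 35.6 in PBS at point 2, and at 28.4, 29.8 and 34.7 against 19.3, 17.7 and 19.2 at point 5. It gave 1.76 ± 0.23 (adjusted p = 6.11e-05), with an insulin arm up by 0.88 and a PBS arm at -0.88. Klf11 and Pdp2 fell outside the rule for named genes and were chosen after their values were seen. Klf11, a relative of Klf10, gave 1.74 ± 0.27 (adjusted p = 0.000828). Pdp2, the phosphatase that activates pyruvate dehydrogenase, was at 4.28, 4.62 and 4.91 FPKM in insulin and 6.90, 8.19 and 8.49 in PBS at point 2. Point 5 gave 10.4, 10.9 and 9.65 FPKM in insulin and 6.41, 7.47 and 7.86 in PBS, a difference of differences of 1.12 ± 0.16 (adjusted p = 0.000219).

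The reversals from higher to lower were Plk2 and Per1. Plk2, a polo-like kinase of the stress response, was at 4.49, 6.08 and 3.92 FPKM in insulin and 1.40, 2.07 and 2.36 in PBS at point 2, and at 1.35, 1.76 and 0.812 against 2.60, 3.54 and 1.97 at point 5. The difference of differences was -1.66 ± 0.28 (adjusted p = 0.00176). Per1, a repressor of the circadian clock that cyclic AMP can induce, was at 10.7, 11.8 and 10.4 FPKM in insulin and 5.79, 6.07 and 6.54 in PBS at point 2. Its point 5 values were 4.59, 5.63 and 5.76 in insulin and 8.10, 8.39 and 7.08 in PBS, a difference of -1.23 ± 0.23 (adjusted p = 0.00405). For both genes the insulin arm fell, by 1.34 and by 0.92 on the log2 scale, and the PBS arm did not pass the test. Both missed the test at one of the points, and so did not count as reversed, with quantile normalization, without insulin library 2 of point 2 and without insulin library 1 or PBS library 2 of point 5, among other settings.

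**Figure D3:**
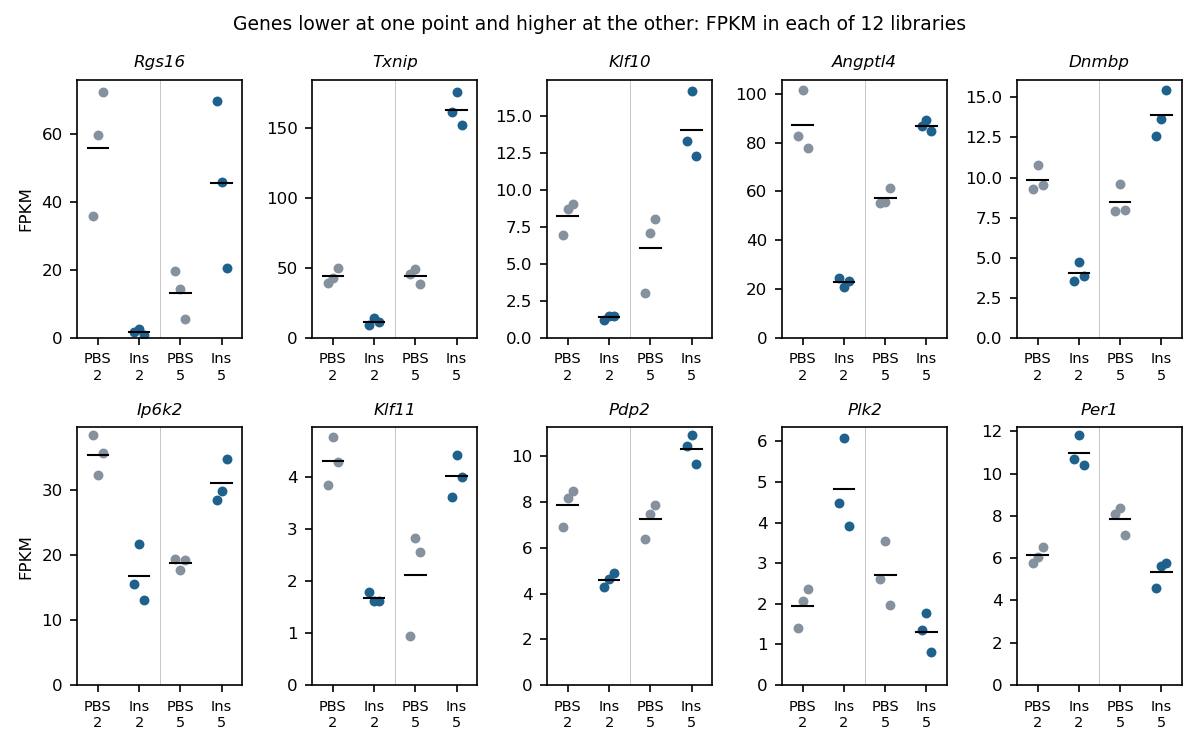
FPKM of the 10 reversed genes in each of the 12 libraries, with PBS libraries in grey, insulin libraries in blue, a bar at each group mean and linear axes from 0. In every panel the blue points lie on opposite sides of the grey points at points 2 and 5, as for Txnip at 9.08 to 14.1 FPKM in insulin at point 2 and 151 to 176 at point 5.

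CREB targets and immediate early genes were among those whose effect faded. The list of CREB targets had 13 members tested, of which 10 were higher in insulin at point 2 (0.708% of all genes were), none was lower and 3 were higher at point 5 (3.18% of all genes). For the difference of differences 7 were lower and 1 was higher (0.763% and 0.496% of all genes). The list median was -1.44 against -0.06 over all genes. The immediate early list had 19 members tested, 9 higher and 2 lower at point 2 (0.708% and 0.874% of all genes). At point 5, 1 was higher and 1 lower (3.18% and 17.3% of all genes). The difference of differences of this list was lower for 5, higher for 1 (Klf10) and had a median of -0.78. Over the alternatives 4 to 8 CREB targets and 1 to 6 immediate early genes were lower. Both lists were drawn up with earlier results of these data known, and Fos and Dusp1 stand in both.

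Nr4a1 (ENSMUSG00000023034, chromosome 15, 101254269 to 101274795, plus strand), an orphan nuclear receptor that cyclic AMP induces, had the lowest difference of differences among the genes named by rule. It was at 50.5, 67.9 and 54.6 FPKM in insulin and 0.981, 1.51 and 0.702 in PBS at point 2, and at 1.18, 1.01 and 0.702 against 0.209, 0.648 and 0.201 at point 5. The insulin libraries of point 2 stood far above the other 9, and those of point 5 were still all above the PBS libraries of that point. The effect went from 4.84 ± 0.37 to 0.55 ± 0.37, a difference of -4.29 ± 0.53 (adjusted p = 3.88e-05), and was 2.71 at point 3 and 1.19 at point 4. Sik1 (ENSMUSG00000024042, chromosome 17, 31844250 to 31855804, minus strand), a kinase that holds CREB coactivators in the cytoplasm, was at 25.7, 42.1 and 37.5 FPKM in insulin and 1.82, 2.13 and 2.1 in PBS at point 2. Later, at point 5, it was at 1.92, 2.33 and 3.98 in insulin and 7.85, 5.90 and 2.16 in PBS, where the groups overlapped. The difference of differences was -4.22 ± 0.58 (adjusted p = 0.000163).

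Atf3, a stress-induced repressor, was at 9.53, 24.4 and 8.28 FPKM in insulin and 0.358, 0.497 and 0.914 in PBS at point 2, and at 0.301 to 0.742 in insulin and 0.0855 to 0.610 in PBS at point 5. Its difference of differences was -2.87 ± 0.53 (adjusted p = 0.0046). Dusp1, a phosphatase of MAP kinases, was at 50.8, 84.9 and 52.8 FPKM in insulin and 10.8, 17.5 and 8.21 in PBS at point 2, and at 5.84, 6.48 and 8.20 against 5.23, 3.55 and 4.71 at point 5. It fell in both arms, by 3.00 in insulin and by 1.21 in PBS, with a difference of -1.78 ± 0.36 (adjusted p = 0.0114). Fosb, an AP-1 subunit, was at 1.95, 5.41 and 1.81 FPKM in insulin at point 2 and at 0.0238 or less in the other 9 libraries, 6 of which had no value and entered the fit at 0. The difference was -1.89 ± 0.37 (adjusted p = 0.00874). Csrnp1, a nuclear protein of the same early response, and Pde4b, a phosphodiesterase that degrades cyclic AMP, gave -1.87 ± 0.36 (adjusted p = 0.00657) and -1.92 ± 0.39 (adjusted p = 0.0105). The adjusted p of Csrnp1 was 0.0522 without both insulin libraries numbered 1.

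Fos and Nr4a3 passed as well, and less firmly. Fos, the founding AP-1 subunit, was at 5.81, 14.5 and 5.69 FPKM in insulin and 0.992, 1.26 and 1.17 in PBS at point 2, against 0.298 to 0.613 and 0.261 to 0.422 at point 5. Its difference of differences was -1.96 ± 0.46 (adjusted p = 0.0336). Nr4a3 was at 2.07, 7.38 and 3.13 FPKM in insulin and at most 0.0928 in PBS at point 2, and gave -1.79 ± 0.44 (adjusted p = 0.0432). Leaving out any of 10 of the 12 libraries ended the call of Fos (adjusted p = 0.0536 to 0.117), all except insulin libraries 1 and 3 of point 2. For Nr4a3 leaving out any of 11 did so (adjusted p = 0.0516 to 0.142), all except insulin library 1 of point 2. In both genes insulin library 2 was the highest at point 2. That library was the highest of the 3 in 28 of the 37 genes that had been higher at point 2 and faded, and without it 23 genes passed as faded in place of 42. Nr4a2, the remaining Nr4a receptor, was higher in insulin at point 2 by 1.81 and did not pass for the difference (-1.44 ± 0.49, adjusted p = 0.184).

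The promoters of these genes are shown because CREB binds the cyclic AMP response element, whose full form is TGACGTCA and whose core is TGACG. The sequences are RefSeq promoters on GRCm38.p6, 250 bases before to 50 after the annotated start, read 5′ to 3′ on the gene's strand. Capitals mark each core on either strand, the full element where cores overlap, and in Dusp1 also an E-box (CACGTG). They are at chr15:101266596-101266895, plus strand (Nr4a1), chr4:48045055-48045354, plus strand (Nr4a3), chr12:85473640-85473939, plus strand (Fos) and chr17:26508423-26508722, minus strand (Dusp1).
Nr4a1: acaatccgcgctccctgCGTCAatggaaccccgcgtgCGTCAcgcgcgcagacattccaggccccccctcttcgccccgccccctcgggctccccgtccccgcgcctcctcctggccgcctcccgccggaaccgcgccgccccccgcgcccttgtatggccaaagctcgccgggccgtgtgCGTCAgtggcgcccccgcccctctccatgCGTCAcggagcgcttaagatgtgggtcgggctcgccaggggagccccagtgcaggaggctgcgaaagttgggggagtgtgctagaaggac
Nr4a3: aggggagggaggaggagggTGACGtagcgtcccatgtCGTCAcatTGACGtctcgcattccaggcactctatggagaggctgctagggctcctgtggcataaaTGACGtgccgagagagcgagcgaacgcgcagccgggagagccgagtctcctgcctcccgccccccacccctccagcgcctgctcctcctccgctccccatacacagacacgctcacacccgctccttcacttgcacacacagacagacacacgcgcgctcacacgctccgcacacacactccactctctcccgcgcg
Fos: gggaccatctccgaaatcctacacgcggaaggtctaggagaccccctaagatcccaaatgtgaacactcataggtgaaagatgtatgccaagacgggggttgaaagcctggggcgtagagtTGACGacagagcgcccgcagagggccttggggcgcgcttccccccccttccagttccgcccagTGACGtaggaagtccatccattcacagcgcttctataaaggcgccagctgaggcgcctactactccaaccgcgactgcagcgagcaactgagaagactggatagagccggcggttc
Dusp1: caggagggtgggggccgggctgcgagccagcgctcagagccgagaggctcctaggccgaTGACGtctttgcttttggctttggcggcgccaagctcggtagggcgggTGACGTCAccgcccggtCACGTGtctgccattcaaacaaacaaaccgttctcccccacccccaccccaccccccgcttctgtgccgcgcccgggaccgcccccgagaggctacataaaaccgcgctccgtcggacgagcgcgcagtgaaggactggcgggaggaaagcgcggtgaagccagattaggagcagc

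Nr4a1 held 4 cores, at 233, 213, 69 and 40 bases before the start, and Nr4a3 also held 4. Fos held 2, at 129 and 66 bases before the start, and Dusp1 held the full element at 143 bases before it. Of the 8 CREB targets called for the difference of differences, 7 had a promoter matched by symbol. These 7 genes have 11 promoters in the table, of which 8 held a core and 1 the full element, against 20.8% and 1.79% of all 32851 promoters, where a promoter with the full element also counts among those with a core. By gene, each of the 7 had a core in at least 1 promoter, against 23% of the 27025 genes of the table, and 1 had the full element, against 2.03%. The list was made up of known CREB targets, so these shares are not independent of its making and say nothing about the fade. Of the 8 reversed genes with a matched promoter, 4 also held a core, Per1 among them. A match is a description of the letters and not of binding.

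Efna1, Ccn1, Sgk1, Rcan1 and Hcar2 also faded. Efna1, a ligand of Eph receptors, was at 27.7, 49.7 and 32.4 FPKM in insulin and 5.62, 6.52 and 7.04 in PBS at point 2, and at 7.37, 7.84 and 6.46 against 9.36, 15.1 and 13.0 at point 5. It gave -3.00 ± 0.47 (adjusted p = 0.000813). The matricellular protein Ccn1, the glucocorticoid-induced kinase Sgk1 and the calcineurin inhibitor Rcan1 gave -2.09 ± 0.33, -1.82 ± 0.31 and -1.55 ± 0.22 (adjusted p = 0.000948, 0.00176 and 0.000354). Rcan1 was chosen after its values were seen, as was Hcar2, the receptor of the ketone body beta-hydroxybutyrate. Hcar2 was at 1.10, 2.12 and 1.48 FPKM in insulin at point 2 and at 0.210 or less in every other library, a difference of -1.40 ± 0.23 (adjusted p = 0.00154). The calls of these 5 genes held under each alternative in which they were tested.

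Irs2 and Socs3 were also among the faded genes. Irs2, an insulin receptor adaptor of liver, was at 11.9, 18.1 and 20.4 FPKM in insulin and 1.69, 1.64 and 2.78 in PBS at point 2, and at 3.46, 4.83 and 4.74 against 2.61, 4.38 and 3.44 at point 5. The difference was -2.28 ± 0.54 (adjusted p = 0.0338). It held when insulin library 1 of point 2, PBS library 3 of point 2 or PBS library 1 of point 5 was left out, and without any one of the other 9 libraries the adjusted p was 0.0503 to 0.0929. Socs3, the inhibitor of cytokine and insulin signalling, was at 8.43, 17.1 and 7.68 FPKM in insulin and 1.18, 1.50 and 2.21 in PBS at point 2, and its groups overlapped at point 5. It gave -2.36 ± 0.46 (adjusted p = 0.0081), and of the 14 inflammation genes tested it was the 1 with a lower difference of differences, against 1 with a higher one, Nfkbia. Slc25a25, a mitochondrial ATP-magnesium carrier, was the most abundant of the larger fades at 166, 198 and 168 FPKM in insulin and 23.0, 31.9 and 33.0 in PBS at point 2, with -2.79 ± 0.62 (adjusted p = 0.0215). That call ended without insulin library 2 of point 2, insulin library 1 of point 5, PBS library 1 of point 2 or PBS library 1 of point 5 (adjusted p = 0.0655, 0.0708, 0.0616 and 0.0551). Amd1 and Amd2, copies of the gene for the polyamine enzyme S-adenosylmethionine decarboxylase, and the pseudogenes Amd-ps3 and Amd-ps4 all passed. Their near-identical sequences can share reads, so they are uncertain as separate genes. The call of Amd-ps4 ended without any of 9 libraries (adjusted p = 0.0592 to 0.133), that of Amd1 without any of 4 (0.0505 to 0.0742), and those of Amd2 and Amd-ps3 without any of 3 each (0.063 to 0.0724 and 0.0511 to 0.0627).

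**Figure D4:**
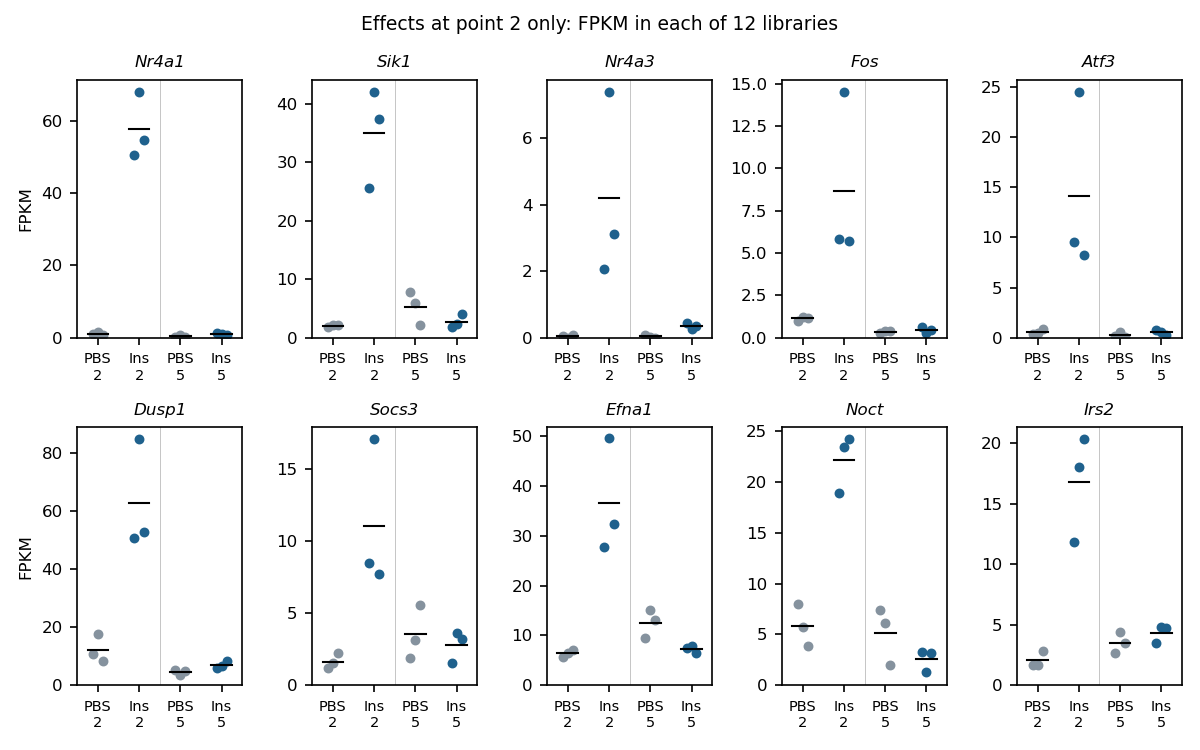
FPKM of 10 genes whose insulin effect passed at point 2 and not at point 5, in each of the 12 libraries, with PBS in grey, insulin in blue, bars at group means and linear axes from 0. The blue points of point 2 stand above all others in every panel, as for Nr4a1 at 50.5 to 67.9 FPKM against at most 1.51 elsewhere.

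Only 5 genes that were lower in insulin at point 2 faded. Depp1, a fasting-induced Foxo target, was at 7.37, 7.32 and 5.25 FPKM in insulin and 28.7, 38.3 and 44.7 in PBS at point 2. At point 5 it was at 19.5, 28.3 and 22.8 in insulin and 18.5, 23.1 and 16.9 in PBS, so the groups overlapped. The difference was 2.57 ± 0.44 (adjusted p = 0.00176), and the call held under every alternative. Nfkbia, the inhibitor of NF-kappa-B, was at 14.4, 18.0 and 14.7 FPKM in insulin and 27.5, 37.7 and 28.9 in PBS at point 2, and at 14.3 to 18.8 and 15.1 to 18.1 at point 5. Its insulin libraries stayed level while the PBS libraries came down, with a difference of 0.94 ± 0.22 (adjusted p = 0.0348). Leaving out any of 8 libraries ended that call (adjusted p = 0.051 to 0.102), all except insulin library 2 and PBS library 1 of point 2, and insulin library 1 and PBS library 3 of point 5. The adaptor Grb7, the zinc finger gene Zfp691 and the clone B930025P03Rik completed the group at 0.84, 1.33 and 1.50. Leaving out any of 9 libraries ended the call of Zfp691 (adjusted p = 0.0552 to 0.128), any of 6 that of Grb7 (0.0579 to 0.101), and PBS library 1 of point 5 that of B930025P03Rik (0.0534).

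Pdk4 had the largest difference of differences among the late genes. Pdk4 (ENSMUSG00000019577, chromosome 6, 5483351 to 5496309, minus strand), the kinase that switches off pyruvate dehydrogenase, was at 1.83, 1.92 and 2.06 FPKM in insulin and 3.24, 3.20 and 5.63 in PBS at point 2. At point 5 it was at 24.1, 23.3 and 25.0 in insulin and 1.61, 3.01 and 1.64 in PBS. The insulin libraries were below every PBS library at point 2, where the effect of -0.74 ± 0.26 did not pass (adjusted p = 0.134), and far above at point 5, where it was 3.05 ± 0.26. The difference of differences was 3.80 ± 0.36 (adjusted p = 7.37e-07), and the effect was 0.53 at point 3 and 3.30 at point 4. Pdk4 and Pdp2, which act in opposite directions on the same enzyme complex, thus both stood higher in insulin at point 5.

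Ppargc1a, the coactivator PGC-1 alpha of gluconeogenesis and mitochondrial genes, was at 1.39, 1.17 and 1.31 FPKM in insulin and 2.17, 1.61 and 1.40 in PBS at point 2, and at 6.24, 7.66 and 8.52 against 1.74, 2.41 and 1.51 at point 5. It was the only CREB target with a higher difference of differences, 1.80 ± 0.21 (adjusted p = 1.06e-05), and its effect was largest at point 3, at 2.64. Lpin1, a phosphatidate phosphatase and partner of PGC-1 alpha, was at 40.3, 62.9 and 47.5 FPKM in insulin and 45.3, 66.3 and 39.7 in PBS at point 2. At point 5 it was at 134, 180 and 229 against 47.5, 34.6 and 34.5, a difference of 2.17 ± 0.39 (adjusted p = 0.00347). At point 1 Lpin1 had been lower in insulin, at -1.83 ± 0.28 (adjusted p = 0.00946), with means of 5.88 FPKM in insulin and 24.6 in PBS, and it was the only gene called there. Setdb2, a histone methyltransferase, was at 4.55 to 4.93 FPKM in insulin and 5.08 to 5.87 in PBS at point 2, and at 14.7, 17.2 and 26.1 against 4.27, 4.60 and 3.34 at point 5, with 2.13 ± 0.32 (adjusted p = 0.000644). Setdb2 was lower in insulin at point 3, at -0.78 ± 0.23 (adjusted p = 0.0331), with means of 2.84 FPKM in insulin and 5.58 in PBS. Retreg1, a receptor for the autophagy of endoplasmic reticulum chosen after its values were seen, was at 133, 156 and 154 FPKM in insulin and 42.8, 64.3 and 54.6 in PBS at point 5. It gave 1.56 ± 0.20 (adjusted p = 5.12e-05). The calls of these 5 genes held under every alternative in which they were tested.

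Lepr, the leptin receptor, was at 0.594, 1.26 and 1.82 FPKM in insulin and 4.12, 3.48 and 4.61 in PBS at point 2, and at 3.06, 5.63 and 6.09 against 1.08, 4.48 and 0.822 at point 5, where the groups overlapped. Its point 2 effect of -1.22 just missed the test (adjusted p = 0.0652), and the difference of differences was 2.29 ± 0.48 (adjusted p = 0.014). Agxt, the peroxisomal enzyme that detoxifies glyoxylate, was at 393, 399 and 408 FPKM in insulin and 111, 225 and 122 in PBS at point 5, and 102 to 192 in both groups at point 2. It gave 1.59 ± 0.33 (adjusted p = 0.0147), and the call ended without insulin library 2 of point 2 (adjusted p = 0.0644) or PBS library 1 of point 5 (adjusted p = 0.0534). The citric acid cycle genes Idh3a and Fh1, chosen after their values were seen, gave 0.85 ± 0.20 and 0.83 ± 0.20 (adjusted p = 0.0346 and 0.0329). Leaving out any of 8 libraries for Idh3a (adjusted p = 0.0581 to 0.112) and any of 7 for Fh1 (adjusted p = 0.0505 to 0.105) ended those calls.

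The Foxo and insulin signalling list divided. Of 19 members tested, 5 had a higher difference of differences (Pdk4, Txnip, Depp1, Ccng2 and Sesn1) and 1 a lower one (Irs2), with a median of -0.03. Over all genes 0.496% had a higher one and 0.763% a lower one. At point 2, 1 was higher and 2 were lower (0.708% and 0.874% of all genes). At point 5, 5 were higher and 2 lower (3.18% and 17.3% of all genes). Sesn1, a sestrin that restrains mTORC1, was at 1.52, 1.42 and 1.63 FPKM in insulin and 2.28, 2.76 and 2.34 in PBS at point 2, and at 4.93, 4.12 and 6.42 against 3.51, 2.78 and 3.39 at point 5. It gave 0.98 ± 0.20 (adjusted p = 0.0132), which became 0.0505 without insulin library 3 of point 5. Ccng2, an atypical cyclin of growth arrest, differed mainly through the PBS arm, which fell by 0.84 while the insulin arm did not pass the test (difference 1.26 ± 0.28, adjusted p = 0.0228). Its call ended without any of 6 libraries, which were insulin library 2 and PBS libraries 1 and 2 of point 2, and insulin libraries 2 and 3 and PBS library 1 of point 5 (adjusted p = 0.0608 to 0.0879).

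The promoters of Txnip and Plk2 are shown because they hold a searched motif that most promoters lack. The Foxo motif GTAAACA was in at least 1 promoter of 4.05% of all genes, and 2 of the 6 called members of the list held it, Txnip at 121 bases before the start and Sesn1 at 22 after it. Of the 10 reversed genes 8 were matched, and Plk2 held the full cyclic AMP response element, 62 bases before the start. Capitals mark the Foxo motif in Txnip (chr3:96557707-96558006, plus strand) and the full element and a further core in Plk2 (chr13:110394794-110395093, plus strand), both from RefSeq on GRCm38.p6.
Txnip: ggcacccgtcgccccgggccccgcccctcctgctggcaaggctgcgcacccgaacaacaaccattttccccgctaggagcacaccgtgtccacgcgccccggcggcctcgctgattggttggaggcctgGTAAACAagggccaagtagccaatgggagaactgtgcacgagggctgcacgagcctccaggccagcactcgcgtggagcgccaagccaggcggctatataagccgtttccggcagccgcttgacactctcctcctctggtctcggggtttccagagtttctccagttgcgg
Plk2: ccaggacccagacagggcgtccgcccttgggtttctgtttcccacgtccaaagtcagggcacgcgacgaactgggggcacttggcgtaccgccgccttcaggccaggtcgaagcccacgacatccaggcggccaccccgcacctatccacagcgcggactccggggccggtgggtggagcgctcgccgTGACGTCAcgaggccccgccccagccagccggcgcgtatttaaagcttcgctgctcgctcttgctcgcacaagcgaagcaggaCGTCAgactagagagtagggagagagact

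Srebf1 (ENSMUSG00000020538, chromosome 11, 60199089 to 60222581, minus strand), the transcription factor that drives fatty acid synthesis, was at 4.51, 5.35 and 4.14 FPKM in insulin and 3.11, 6.23 and 4.40 in PBS at point 2. At point 5 it was at 2.34, 2.04 and 1.41 in insulin and 8.11, 7.38 and 7.06 in PBS, all insulin libraries below all PBS libraries. The effect went from 0.05 ± 0.24 to -1.55 ± 0.24, a difference of -1.60 ± 0.34 (adjusted p = 0.014). It missed the threshold without insulin library 3 of point 5 (adjusted p = 0.0505) or PBS library 1 of point 2 (adjusted p = 0.0501). No other of the 14 members of its list passed, and Fasn, the fatty acid synthase, gave -0.72 ± 0.35 (adjusted p = 0.422). The list median was -0.24.

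Tk1, the thymidine kinase of DNA synthesis, and Actn1, an actin crosslinker, were chosen after their values were seen. Tk1 was at 3.80, 2.87 and 3.31 FPKM in insulin and 14.4, 9.27 and 11.2 in PBS at point 5, with -1.37 ± 0.28 (adjusted p = 0.0134). Actn1 was at 1.49, 1.89 and 1.25 FPKM against 5.48, 6.09 and 5.48 at point 5, with -1.26 ± 0.24 (adjusted p = 0.00512). Without both insulin libraries numbered 1, those richest in mitochondrial ribosomal RNA, the adjusted p was 0.0537 for Tk1 and 0.0522 for Actn1.

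All clock genes that passed had a lower difference of differences. They were 5 of the 16 tested (0.763% of all genes were lower), among them Per1, Per2, Per3 and Nfil3, with a list median of -0.66. Under the alternatives 2 to 5 were lower and at most 1 higher. At point 2, 2 were higher (0.708% of all genes were), and at point 5, 6 were lower (17.3% of all genes were). Per2 was at 2.23, 4.28 and 2.55 FPKM in insulin and 1.33, 1.28 and 1.40 in PBS at point 2, and at 1.53, 1.21 and 1.33 against 3.82, 3.91 and 1.56 at point 5. Its insulin libraries were the higher group at point 2 and the lower at point 5, with no overlap at either, and the difference was -1.49 ± 0.29 (adjusted p = 0.00787). The point 2 effect of 0.75 did not pass (adjusted p = 0.0634), so Per2 counts as late and not as reversed, although it was higher in insulin at point 3, by 0.79 (adjusted p = 0.0176). Nfil3, a repressor of clock output, was at 21.6, 34.9 and 36.1 FPKM in insulin and 9.21, 6.10 and 5.91 in PBS at point 2, with all 6 libraries of point 5 between 7.15 and 9.37, a fade of -1.90 ± 0.38 (adjusted p = 0.0101).

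Per3, a further clock gene of the Per family, differed mainly through the PBS arm. It was at 0.604, 1.14 and 0.279 FPKM in insulin and 0.297, 0.650 and 0.397 in PBS at point 2, and at 1.49, 0.705 and 0.963 against 3.15, 3.57 and 1.89 at point 5. The PBS arm rose by 1.40 and the insulin arm did not pass, with a difference of -1.09 ± 0.26 (adjusted p = 0.0337). Leaving out any of 8 libraries ended that call (adjusted p = 0.0592 to 0.122), all except insulin library 3 and PBS library 2 of point 2, and insulin library 1 and PBS library 3 of point 5.

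**Figure D5:**
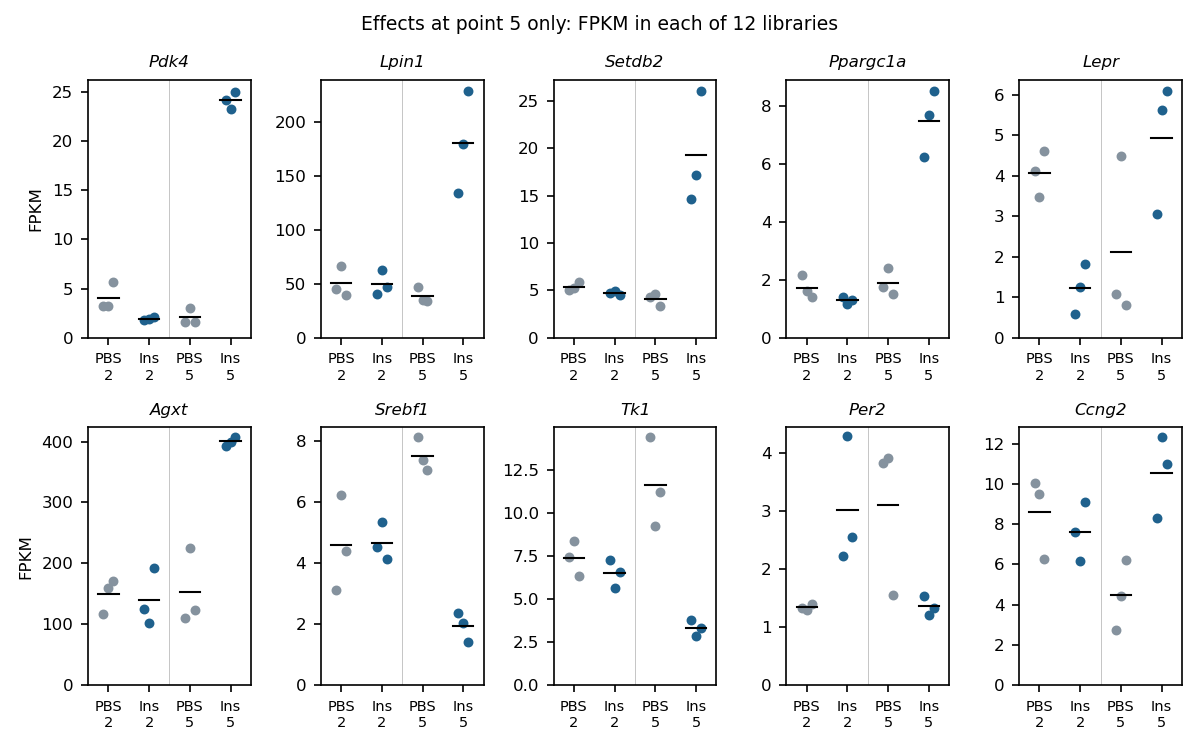
FPKM of 10 genes whose insulin effect passed at point 5 and not at point 2, in each of the 12 libraries, with PBS in grey, insulin in blue, bars at group means and linear axes from 0. Pdk4 at 23.3 to 25.0 FPKM in insulin and at most 5.63 elsewhere shows a change mainly in the insulin arm, and Ccng2 one mainly in the PBS arm.

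Textbook insulin targets of glucose output did not pass for the difference of differences. Pck1, the cytosolic enzyme that commits to gluconeogenesis, was at 1272, 1377 and 1315 FPKM in insulin and 1303, 1273 and 1324 in PBS at point 2, and at 1156, 1456 and 1577 against 1504, 1374 and 1189 at point 5. The groups overlapped at both points and the difference was 0.01 ± 0.22 (adjusted p = 0.988). G6pc, the enzyme that releases free glucose, exceeded its PBS level at both points, by 1.19 and by 0.97, and the difference between them was -0.21 ± 0.42 (adjusted p = 0.891). Igfbp1, a secreted Foxo target, gave 1.69 ± 0.77 (adjusted p = 0.375), with insulin at 170, 244 and 441 FPKM and PBS at 54.3, 121 and 19.4 at point 5. Its effect was 0.67 ± 0.55 at point 2 (limma adjusted p = 0.52) and passed at point 5, at 2.36 ± 0.55 (adjusted p = 0.00484). Missing the threshold for the difference does not show that the effects at the points were alike. Of the 14 gluconeogenesis genes tested, 1 passed, Ppargc1a, and the median was 0.00.

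Other lists held few or no called members. Over all genes 0.496% were higher and 0.763% lower for the difference of differences. Among the 22 measured for ketogenesis and fatty acid oxidation, Angptl4 alone passed, and the median was 0.30. Glucocorticoid receptor targets split into 2 higher (Lpin1 and Zbtb16) and 3 lower (Sgk1, Per1 and Dusp1) of 15, and the call of Zbtb16 ended without any of 9 libraries (adjusted p = 0.0593 to 0.101). The growth arrest and p53-linked list gave Sesn1 and Plk2 in opposite directions, also of 15. The stress factor Atf4 was the only one of 15 members of its list, at -1.03 ± 0.23 (adjusted p = 0.0203), and that call ended without PBS library 2 of point 5 (adjusted p = 0.0545) or PBS library 3 of point 2 (adjusted p = 0.063). None of the tested members of the IGF axis, NRF2, heat shock, ribosome biogenesis, activin, urea cycle, bile acid, autophagy, pericentral or periportal lists passed. Among those nearest the threshold was Osgin1, an oxidative stress gene, at 3.03, 3.67 and 2.97 FPKM in insulin and 13.6, 26.8 and 19.0 in PBS at point 2, with 1.66 ± 0.45 (adjusted p = 0.0666). The receptor Erbb3 and the activin subunit gene Inhba gave 0.97 ± 0.25 and -0.73 ± 0.19 (adjusted p = 0.0507 and 0.0524).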

How the data were processed

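Poly(A) RNA of the left liver lobe was sequenced from insulin and PBS mice, and groups and points were read from the sample titles, whose last number was taken as the point and the one before it as the replicate, since the design has 5 points in triplicate. HISAT2 2.1.0, SAMtools 1.9, StringTie 2.0.3 and the build GRCm38 (mm10) are named in the submitters' processing notes. Which annotation and strand setting were used is not given in the sources used here. FPKM per gene were deposited, scaled by the authors to transcript length and mapped fragments. No cell of the file held exactly 0 and 32.2% held no value. These were set to 0, which touched 413 of the genes tested. Antisense, overlapping and near-identical genes are uncertain for lack of a stated strand setting.

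Values were analysed as log2(FPKM + 1) with limma 3.58.1 in R 4.3.3, in a model of 10 group means over all 30 libraries (20 residual degrees of freedom, intensity trend), with two-sided tests and Benjamini-Hochberg adjustment at 0.05 over the 12706 genes within each comparison. Genes at 1 FPKM in at least 3 of the 12 libraries were kept. The script was tested on simulated data. Genes were named by rule: the 12 highest and 12 lowest called genes with a proper symbol at a mean of 1 FPKM, up to 6 per class and direction, up to 5 per list by p, and a few textbook insulin targets (Pck1, G6pc, Igfbp1, Irs2 and Srebf1 among them). Some genes that this rule names are not reported here. Others are marked as chosen after their values were seen. The members and lists were chosen with earlier results of these data known. Depth was estimated roughly from low values, of which 36.0% to 40.1% came out whole, so no reads were recovered and no count test was run. Gene positions come from GENCODE M21. In all, 25 alternatives were run, 24 of them planned and 1 chosen after seeing the data.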

Additional observations from a re-analysis of the deposited data

Results flagged for a closer look

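The insulin effect differed between points 5 and 2 for 160 genes by a direct test of the difference (limma, Benjamini-Hochberg adjusted). For 10 of them the test was also passed at each point, with opposite signs. Their differences of differences on the log2(FPKM + 1) scale were 6.05 for Rgs16, 3.71 for Txnip, 3.11 for Klf10, 2.47 for Angptl4, 1.76 for Dnmbp, 1.76 for Ip6k2, 1.74 for Klf11, 1.12 for Pdp2, -1.23 for Per1 and -1.66 for Plk2.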

How the results depend on the processing

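Of the genes called for the difference of differences, none changed sign under any alternative run, and the number of reversed genes stayed between 7 and 15. Other counts moved, and the cause was not tested. As deposited, 160 genes were called (63 higher, 97 lower), 42 faded and 101 late. Without a filter on low values 94 were called (37 higher, 57 lower), 51 of them late. With a filter at a mean of 5 FPKM, which tests fewer genes, 74 were called (36 and 38), 21 faded and 44 late, and 454 changed in the insulin arm in place of 833. With the 12 libraries alone 78 were called (26 and 52), 27 faded and 40 late, and 93 changed in the PBS arm in place of 159. Calls that held without any 1 library and ended with the 12 libraries alone were those of Lepr, Per2, Dusp1 and Socs3. With both insulin libraries numbered 1 left out, the pair richest in mitochondrial ribosomal RNA, 70 were called (27 and 43), 67 of them among the 160, with 27 faded and 33 late. Among named genes this ended the calls of Agxt, Sesn1, Nfkbia, Idh3a, Fh1, Grb7, Zfp691, Zbtb16, Prox1, Tk1, Actn1, Atf4, Csrnp1, Fos, Irs2, Slc25a25, Tigar and the Amd genes. Then 117 genes differed at point 2, 1104 at point 5 and 303 in the insulin arm. Median-ratio scaling gave 114 higher and 159 late, and quantile normalization 106 higher. With the lane as a fixed effect, centred within each treatment, 313 genes differed at point 2 in place of 201. No lane held both treatments, so this leaves any lane difference between the arms in the insulin effect. Median-ratio scaling with the lane, chosen after seeing the data, gave 272 called (128 higher), 66 faded, 175 late and 239 in the PBS arm.

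Leaving out single libraries gave 82 to 148 called, 32 to 72 higher, 47 to 89 lower, 23 to 42 faded and 46 to 99 late, with 0 to 1 gene whose effect shrank. It gave 82 to 497 at point 2, 1144 to 2653 at point 5, 482 to 845 in the insulin arm and 59 to 165 in the PBS arm. The lowest of these came without insulin library 2 of point 2 (82 called), and the point 2 count of 497 without PBS library 1 of point 2.

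Whether the replicate numbers pair the libraries was not settled. Same-numbered insulin libraries of points 2 and 5 deviated together with correlations of 0.203, 0.0482 and 0.0802, and PBS libraries with 0.0212, -0.0745 and 0.0698, and not every library correlated best with its own number. With the replicate number as a block 195 genes were called, 467 differed at point 2 and 3196 at point 5. With a block within treatment the counts were 207, 469 and 3311. Without a block they were 160, 201 and 2607. Each PBS replicate number was on a lane of its own, so number and lane cannot be told apart in that arm.

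Depth limits the genes below about 1 FPKM, which were not tested unless 3 libraries reached it, and an undetected change in such genes is not shown to be absent.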

Other observations

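The 7 genes that passed for the difference of differences and at neither point alone included Tigar, a phosphatase of the glycolytic regulator fructose-2,6-bisphosphate, at -0.87 ± 0.22 (SE, n = 3 per group, limma adjusted p = 0.0468). Tigar was at 2.52, 2.90 and 3.66 FPKM in insulin and 1.76, 2.21 and 1.43 in PBS at point 2, and at 1.43, 2.25 and 1.85 against 3.63, 1.83 and 2.50 at point 5. Its call ended without any of 8 of the 12 libraries (adjusted p = 0.0884 to 0.139), all except insulin library 1 and PBS library 2 of point 2, and insulin library 2 and PBS library 2 of point 5. That call also ended without both insulin libraries numbered 1. Tigar was chosen after its values were seen.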
